A study of Mus musculus with 14 samples.

Results

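The genes described here are 10 genes of melanin synthesis and of the melanosome, the organelle in which melanin is made: Tyr, Tyrp1, Dct, Pmel, Mlana, Slc45a2, Slc24a5, Oca2, Gpr143 and Rab38. They were chosen by symbol, with earlier results of these data known. All 10 were found among the 42687 genes counted by RNA sequencing in 14 libraries of mouse retinal pigment epithelium (RPE) cells. Each library held the RPE cells of both eyes of 1 male C57BL/6J mouse, aged 3 months, detached from opened eyecups by enzyme treatment. KO mice carried Best1-Cre+/- and Clic4f/f, so that Cre, driven by the Best1 promoter in RPE cells, removed the chloride intracellular channel gene Clic4. Controls were WT mice with neither allele, Ctrl mice with Clic4f/f and no Cre, and CreCtrl mice with Best1-Cre+/- and no floxed allele. The libraries formed 3 sets that shared none: 3 WT with 3 KO, 2 Ctrl with 2 KO and 2 CreCtrl with 2 KO mice. Each set had its own kind of control, so control genotype and set cannot be told apart.

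Melanin is made from tyrosine inside the melanosome. Tyrosinase starts the reaction and Tyrp1 and Dct carry it on, on a scaffold of protein fibrils, while transporters in the organelle's membrane set its ions and pH. In the eye, RPE cells and the melanocytes of the neighbouring choroid both make melanosomes with these gene products. RPE cells make most of their melanosomes before and around birth, and adult cells keep them. A transcript of this group in a bulk library can therefore come from either cell type, and fewer cells of a type and less RNA per cell cannot be told apart.

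By role, the enzymes are Tyr at chr7:87424771-87493512 (GRCm38, minus strand), Tyrp1 at chr4:80834123-80851719 (plus) and Dct at chr14:118012790-118052244 (minus). The fibril protein Pmel is at chr10:128704195-128720238 (plus) and Mlana, a small membrane protein that binds Pmel, is at chr19:29697824-29708634 (plus). The membrane transporters are Slc45a2 at chr15:11000721-11029233, Slc24a5 at chr2:125068124-125088677 and Oca2 at chr7:56239760-56536518, all on the plus strand. The receptor Gpr143 is at chrX:152781921-152808646 (plus), and Rab38, a small GTPase that directs enzymes to the melanosome, is at chr7:88430273-88491572 (plus). All 10 were protein coding in GENCODE M21, and their deposited counts were per gene. Exons of Pmel overlapped those of Cdk2 by 34 bp and Dgka by 105 bp, and exons of Slc24a5 overlapped those of Myef2 by 921 bp, each on the other strand. The strand setting of the counting was not given in the sources used here, so reads in those stretches could belong to either gene.

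Promoters of 5 members, from 250 bases before to 50 after the RefSeq gene start (GRCm38.p6), are shown so that the sequence at their starts can be read beside their levels, and are the 5 that were matched by symbol. All 5 held the letters of the M-box core, CATGTG, to which the pigment cell factor Mitf is known to bind. The windows were chr7:87493463-87493762 for Tyr (minus strand), chr4:80833963-80834262 for Tyrp1 (plus strand), chr14:118052197-118052496 for Dct (minus strand), chr7:56239509-56239808 for Oca2 (plus strand) and chr2:125067877-125068176 for Slc24a5 (plus strand). Each is written from 5′ to 3′ along the gene's strand, with CATGTG, or its reverse complement CACATG where the match was on the opposite strand, in capitals.
Tyr: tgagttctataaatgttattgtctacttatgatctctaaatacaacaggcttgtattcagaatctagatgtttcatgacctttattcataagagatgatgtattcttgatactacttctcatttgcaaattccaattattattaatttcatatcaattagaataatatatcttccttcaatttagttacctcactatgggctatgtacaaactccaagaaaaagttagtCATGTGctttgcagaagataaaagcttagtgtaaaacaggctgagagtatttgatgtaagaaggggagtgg
Tyrp1: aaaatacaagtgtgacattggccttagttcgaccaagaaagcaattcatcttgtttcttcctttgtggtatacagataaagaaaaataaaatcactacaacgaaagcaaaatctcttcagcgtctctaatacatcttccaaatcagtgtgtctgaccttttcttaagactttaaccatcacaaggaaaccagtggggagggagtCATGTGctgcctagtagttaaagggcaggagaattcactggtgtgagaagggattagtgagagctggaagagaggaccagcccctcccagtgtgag
Dct: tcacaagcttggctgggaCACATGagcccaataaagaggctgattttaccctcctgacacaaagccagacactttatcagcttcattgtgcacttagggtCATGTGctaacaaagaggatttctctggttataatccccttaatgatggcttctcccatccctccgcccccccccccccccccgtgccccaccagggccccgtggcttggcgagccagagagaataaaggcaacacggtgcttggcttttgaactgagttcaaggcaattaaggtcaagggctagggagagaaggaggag
Slc24a5: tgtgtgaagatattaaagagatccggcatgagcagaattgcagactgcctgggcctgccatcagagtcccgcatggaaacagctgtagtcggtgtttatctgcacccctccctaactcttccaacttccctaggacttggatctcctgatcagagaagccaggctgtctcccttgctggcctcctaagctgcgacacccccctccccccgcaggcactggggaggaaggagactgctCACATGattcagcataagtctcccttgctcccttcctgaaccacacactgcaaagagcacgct
Oca2: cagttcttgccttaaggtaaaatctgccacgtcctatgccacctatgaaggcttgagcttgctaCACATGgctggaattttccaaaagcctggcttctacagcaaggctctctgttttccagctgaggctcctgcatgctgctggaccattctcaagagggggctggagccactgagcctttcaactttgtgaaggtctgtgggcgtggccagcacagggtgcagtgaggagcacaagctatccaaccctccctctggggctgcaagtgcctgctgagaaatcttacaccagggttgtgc
The motif began 21 bases before the start of Tyr and 46 before that of Tyrp1, and on the opposite strand its first printed base lay 13 bases before the start of Slc24a5 and 186 before that of Oca2. Dct had 2 matches, at 150 bases before the start and, on the opposite strand, at 232. CATGTG was found on either strand in 4650 of the 32851 promoters of the same length, or 14.2%. With the T that precedes it in the full M-box, TCATGTG, it was found in 4 of the 5, all but Oca2, and in 3.77% of all promoters, a subset of the above. A letter match is a description of the sequence and not a binding site.

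The libraries held 9828293 to 32384166 counts. Clic4 checked the labels: its mean was 225 ± 5.88 CPM (SD, n = 3) in WT and 24.8 ± 7.72 in their KO mice, and every KO library lay below every control library in each set. Clic4 fell by 3.32 ± 0.22 (SE, adjusted p = 3.33e-05) on the log2 scale in KO vs. WT and by 2.16 ± 0.36 (SE, adjusted p = 0.0132) vs. CreCtrl. Against Ctrl, at 71.4 and 62.1 CPM, the KO libraries were at 9.78 and 33.9, a difference of -1.61 ± 0.58 (SE, adjusted p = 0.333) that was not called. CPM are counts as a share of the library's total, expressed on a common scale with TMM factors over all 14 libraries. The labelled tissue was checked by 10 RPE markers (Rpe65, Rlbp1, Lrat and others), of which Best1 itself was listed at only 1.19 to 5.94 CPM. The 10 summed to 16558 to 24078 CPM in WT, 48249 to 48304 in Ctrl, 51248 to 59298 in CreCtrl and 73980 to 85000 in KO libraries. In KO vs. WT, 9 of the 10 rose. The summed CPM of 10 fibroblast markers went the other way, at 7862 to 8240 in WT, 1397 to 3073 in Ctrl and CreCtrl and 307 to 866 in KO, and all 10 fell in KO vs. WT. The markers of endothelial cells summed to 93.5 to 446 CPM in controls and 29.5 to 128 in KO libraries, those of pericytes and smooth muscle to 459 to 2022 and 301 to 445, and those of erythrocytes to 109 to 750.2 and 27.6 to 215. The myeloid sums were 913 to 2740 and 777 to 2633, the Schwann cell sums 362 to 555 and 380.1 to 551, and the rod sums 25.9 to 4131 and 110.5 to 1624. The part of this mixture in the results below was not tested, apart from the scaling to RPE markers given with them.

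In KO vs. WT, 7 of the 10 genes rose: the enzymes Tyr, Tyrp1 and Dct, the fibril protein Pmel, the transporters Slc24a5 and Oca2 and the receptor Gpr143, of which Tyrp1 and Pmel reversed when libraries were scaled to RPE markers. A gene was called, here and below, at an adjusted p under 0.05 (edgeR's quasi-likelihood test, Benjamini-Hochberg over all genes tested) and a change over 1.5-fold. The background of calls was high, with 14.1% of all 15428 genes tested called higher and 17.6% called lower. Every KO library lay above every WT library for 8 of the 10 genes, against 28.7% of all genes that lay above and 24.5% that lay below. The median log2 fold change of the 10 was 1.47, beside -0.08 over all genes. Against Ctrl, 0 of the 10 were called, and 0% of the 15287 genes tested were called in either direction by edgeR, although 1846 genes and 1 member, Pmel, had an unadjusted p under 0.05 and DESeq2 called 1 member, also Pmel, lower, with 0.111% of all genes higher and 7.16% lower. In that set 3 members lay wholly above the controls (18.3% of all genes) and 3 wholly below (22.7%), and the median of the 10 was -0.11, beside 0.01. Against CreCtrl, Oca2 and Gpr143 rose (3.46% of 15963 genes called higher) and Pmel fell (12.2% called lower). There 7 members lay wholly above the controls (37.3% of all genes) and 1 wholly below (34.9%), with a median of 0.55, beside -0.02. Without KO replicate 2 of that set 0 members were called (0.309% of all genes higher and 7.3% lower), and without CreCtrl replicate 1 there were 5 higher and 1 lower (12.8% and 16.2% of all genes).

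**Figure D1:**
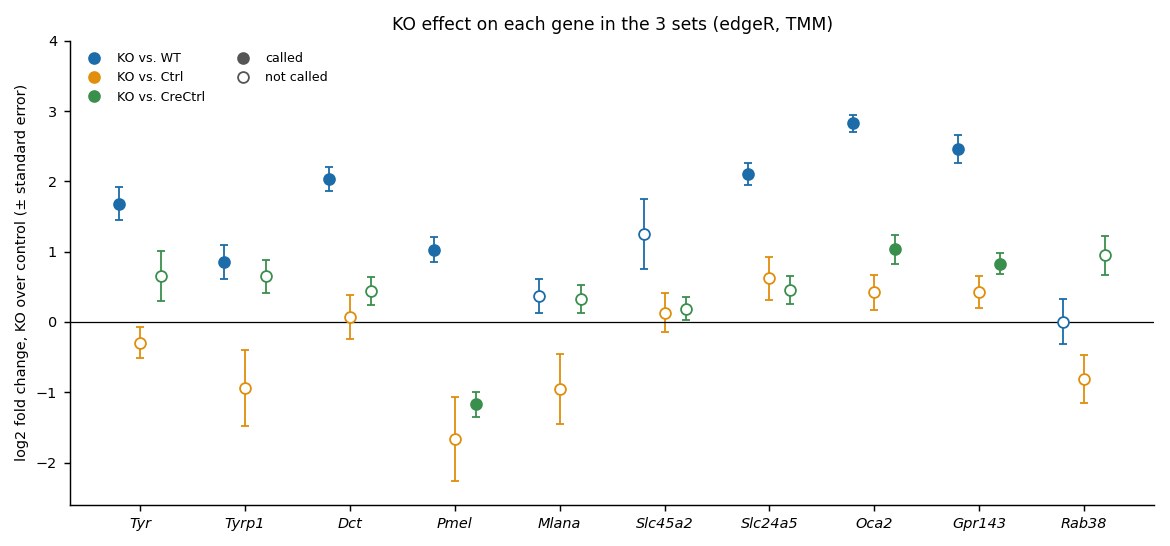
Log2 fold change of each gene in KO over control (points, with standard error bars) in the WT set (blue), the Ctrl set (orange) and the CreCtrl set (green), where filled points mark called genes. The effect of KO vs. WT was at 0.86 to 2.83 for the 7 called genes, whereas Pmel lay at -1.66 against Ctrl and -1.17 against CreCtrl, and under scaling to RPE markers Tyrp1 and Pmel in KO vs. WT fell below 0.

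Between genes, levels can be compared only per length, as CPM per kb of merged exons. By the median of the 6 group means, Dct was the most abundant member at 266 CPM per kb and was above the next gene in all 14 libraries. Slc24a5 (111), Tyrp1 (105), Pmel (83.2) and Mlana (60.9) followed. Slc24a5 was above Tyrp1 in 7 of 14 libraries, Tyrp1 above Pmel in 9, Pmel above Mlana in 11 and Mlana above Oca2 in 12, so that these neighbours changed places between libraries. Oca2 stood at 45.4 and was above Gpr143 (30.2) in 12 libraries, while Gpr143 was above Tyr (29.8) in only 5. Tyr was above Slc45a2 (9.71) in all 14, and Slc45a2 above Rab38 (7.48) in 8.

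Tyrosinase, encoded by Tyr, catalyses the rate-limiting reaction of melanin synthesis. In the WT set it was measured at 53.4, 68.8 and 96.7 CPM in WT and 209, 286 and 283 in KO libraries. The groups did not overlap, and Tyr rose by a log2 fold change of 1.68 ± 0.23 (SE, adjusted p = 7.71e-04), though under scaling to RPE markers the change was 0.29 (adjusted p = 0.171). In the Ctrl set the levels were 199 and 239 CPM in Ctrl and 184 and 172 in KO libraries. Both KO libraries were below both controls, by a difference of -0.30 ± 0.22 (SE, adjusted p = 0.777) that was not called. CreCtrl libraries had 218 and 191 CPM and their KO libraries 204 and 451, so 1 KO library stood far above all others and the groups overlapped. The log2 difference of 0.65 ± 0.35 (SE, adjusted p = 0.215) became -0.06 without that library, KO replicate 2, and 1.15, a call, without KO replicate 1.

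Tyrp1 acts after tyrosinase and keeps it stable. WT libraries held 93.2, 164 and 194 CPM and their KO libraries 299, 295 and 309.7, which were all higher and much closer to each other. The log2 fold change was 0.86 ± 0.24 (SE, adjusted p = 0.0252), and it was -0.53 (adjusted p = 0.0329) under scaling to RPE markers, in the other direction but less than 1.5-fold. Without WT replicate 2 the increase was 0.92 and not called (adjusted p = 0.0589). The Ctrl libraries differed widely, at 276 and 852 CPM, and the KO libraries of that set, at 249 and 339, lay on both sides of Ctrl replicate 1. Their log2 difference was -0.94 ± 0.54 (SE, adjusted p = 0.649), and 0.09 without Ctrl replicate 2. Against CreCtrl at 286 and 182 CPM, the KO libraries at 376 and 376 were both higher, by 0.65 ± 0.23 (SE, adjusted p = 0.0896), which was not called but was at 1.00 (adjusted p = 0.00730) without CreCtrl replicate 1.

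Dct, dopachrome tautomerase, converts an intermediate of eumelanin synthesis. It was at 317, 405 and 473 CPM in WT and 1936, 1798 and 1689.5 in KO libraries of that set. The KO libraries were several times higher with no overlap, and Dct rose by 2.04 ± 0.17 (SE, adjusted p = 7.48e-05) on the log2 scale, or by 0.63 (adjusted p = 0.00289) when scaled to RPE markers. Ctrl libraries held 1216 and 1883 CPM and their KO libraries 1534 and 1727. The groups overlapped, since Ctrl replicate 2 was the highest of the 4, and the difference was 0.07 ± 0.31 (SE, adjusted p = 0.974), with a sign that turned under 2 other scalings. CreCtrl libraries were close together at 1138 and 1148 CPM and below KO libraries at 1505 and 1669.5, by 0.44 ± 0.19 (SE, adjusted p = 0.140), and the difference turned to -0.02 when scaled to RPE markers.

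**Figure D2:**
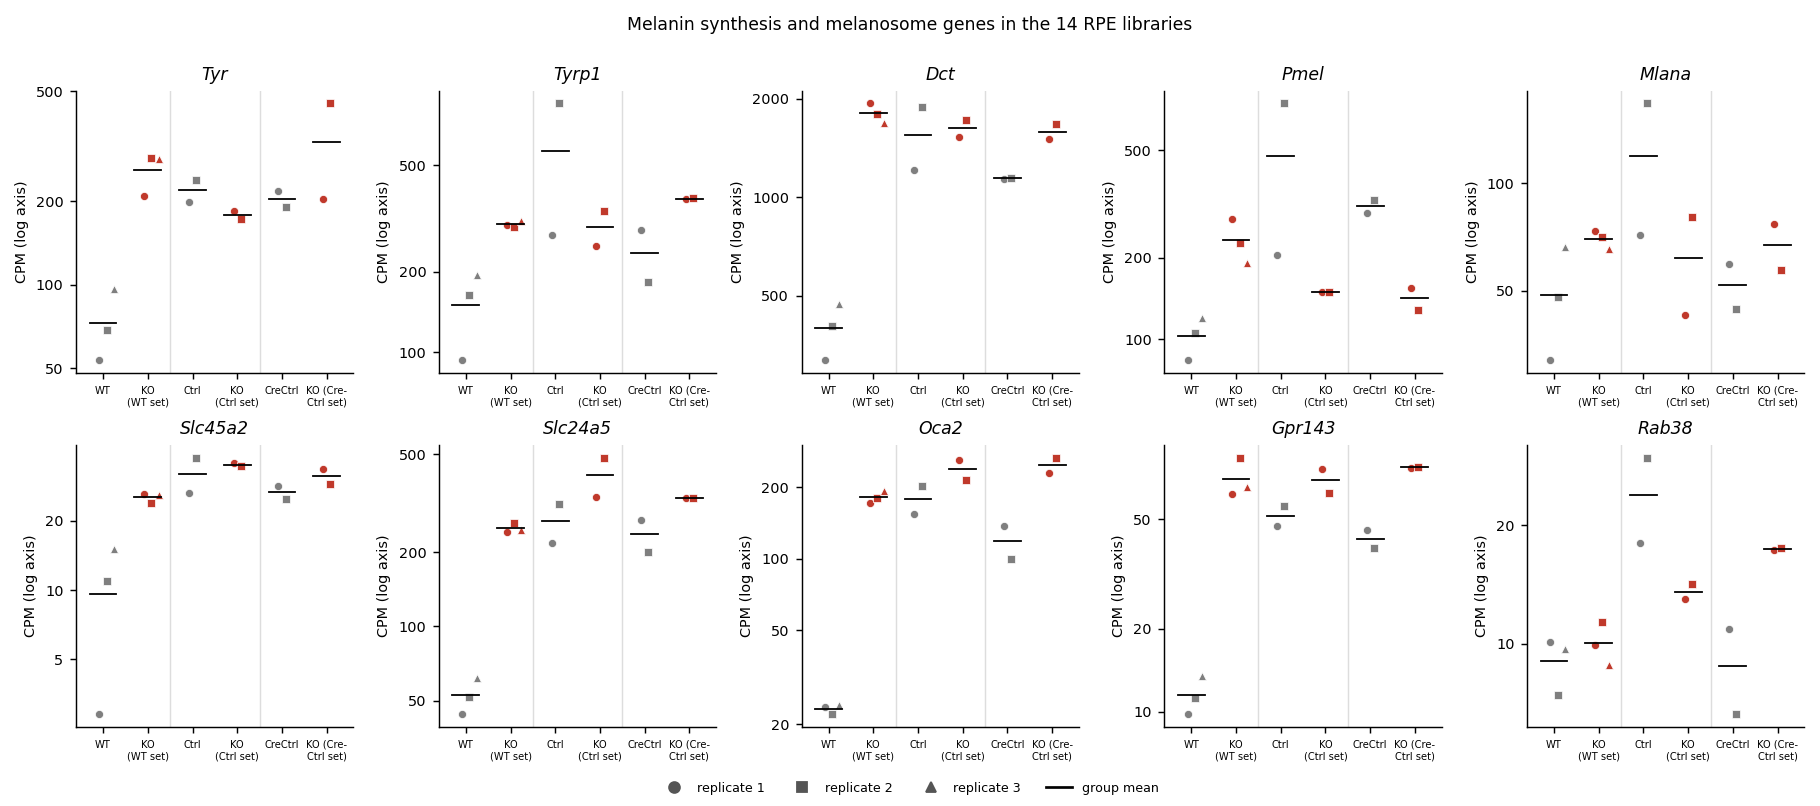
CPM (log axis, a different range in each panel) of the 10 genes in the 14 libraries, with control libraries in grey, KO libraries in red, symbols for the replicate number and a line at each group mean. The 3 WT libraries were the lowest of all 14 for Tyr, Dct, Pmel, Slc24a5, Oca2, Gpr143 and Slc45a2, and Ctrl replicate 2 was the highest for Tyrp1, Pmel, Mlana, Slc45a2 and Rab38.

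Pmel forms the amyloid fibrils on which melanin is laid down in the melanosome. WT libraries had 83.5, 105 and 119.6 CPM and their KO libraries 277, 227 and 192, with no overlap and a rise of 1.03 ± 0.18 (SE, adjusted p = 0.00276) on the log2 scale, which became -0.37 (adjusted p = 0.0918) under scaling to RPE markers. In the other sets the order was the opposite. Ctrl libraries held 205 and 744 CPM and their KO libraries 148.96 and 149.9. Both KO libraries were below both Ctrl libraries, by -1.66 ± 0.59 (SE, adjusted p = 0.327), not called, and this difference ranged from -0.46 without Ctrl replicate 2 to -2.30 (adjusted p = 0.0104) without Ctrl replicate 1. CreCtrl libraries, at 294 and 328 CPM, were above KO libraries at 155 and 128. Pmel fell by 1.17 ± 0.18 (SE, adjusted p = 0.00913) there, and by 1.63 when scaled to RPE markers. This call was lost without KO replicate 2 of that set, and also with all 14 libraries fitted together.

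Mlana binds Pmel and is needed for its processing. It was at 31.9, 48.1 and 66.2 CPM in WT and 73.7, 70.7 and 65.4 in their KO libraries, where WT replicate 3 fell among the KO libraries. The log2 difference of 0.37 ± 0.24 (SE, adjusted p = 0.284) was not called, was 0.67 (adjusted p = 0.0488) without WT replicate 3, and was -1.01 (adjusted p = 0.00202) under scaling to RPE markers. Ctrl libraries held 71.7 and 167 CPM and their KO libraries 42.7 and 80.7, which overlapped, at -0.95 ± 0.50 (SE, adjusted p = 0.595). CreCtrl libraries held 59.3 and 44.6 CPM and their KO libraries 77.0 and 57.2, overlapping again, at 0.33 ± 0.20 (SE, adjusted p = 0.262).

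Oca2, a membrane protein that raises the pH inside the melanosome, had the largest log2 fold change of the 10 genes in KO vs. WT. WT libraries held 23.6, 22.0 and 24.0 CPM and their KO libraries 173, 179.7 and 194. Replicates were close within each group, and Oca2 rose by 2.83 ± 0.12 (SE, adjusted p = 1.43e-05), or by 1.39 (adjusted p = 1.72e-04) when scaled to RPE markers. Against Ctrl at 154 and 202 CPM, KO libraries at 261 and 216 were both higher by 0.42 ± 0.25 (SE, adjusted p = 0.671), which was not called and turned to -0.15 under that scaling. Against CreCtrl at 138 and 99.5 CPM, KO libraries were at 231 and 267. Oca2 rose there by 1.04 ± 0.21 (SE, adjusted p = 0.0226), with an adjusted p of 0.0678 without KO replicate 2.

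Slc24a5, a potassium-dependent exchanger of sodium and calcium, was at 43.9, 51.6 and 61.9 CPM in WT and 242, 262 and 245 in their KO libraries. It rose by 2.11 ± 0.15 (SE, adjusted p = 4.44e-05), or by 0.70 (adjusted p = 0.00155) when scaled to RPE markers. Ctrl libraries held 219 and 314 CPM and their KO libraries 335 and 484, with KO replicate 2 the highest of all 14, and both KO libraries were higher by 0.62 ± 0.31 (SE, adjusted p = 0.566). CreCtrl libraries held 271 and 201 CPM and KO libraries 331 and 333, which were higher by 0.46 ± 0.19 (SE, adjusted p = 0.130). Neither of these differences was called, and without CreCtrl replicate 1 that of the CreCtrl set was 0.68 (adjusted p = 0.0246).

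Slc45a2, a transporter that also bears on melanosome pH, was measured less deeply. WT libraries held 2.87, 10.9 and 15.1 CPM, an uneven group, and their KO libraries 26.3, 23.9 and 26.1. All KO libraries were higher, by 1.25 ± 0.50 (SE, adjusted p = 0.0890), which was not called, was called with DESeq2 (adjusted p = 0.0432) and without WT replicate 3 (1.75), and was -0.08 under scaling to RPE markers. Ctrl and KO libraries of the Ctrl set overlapped at 26.4 and 37.8 and 35.8 and 34.7 CPM, and those of the CreCtrl set were at 28.5 and 24.8 and 33.7 and 28.9. The log2 differences were 0.13 ± 0.27 (SE, adjusted p = 0.946) and 0.19 ± 0.17 (SE, adjusted p = 0.433), neither called.

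Gpr143, a receptor of the melanosome membrane known for its part in setting melanosome size and number, had the largest log2 fold change after Oca2 in KO vs. WT. It was at 9.77, 11.2 and 13.5 CPM in WT and 61.6, 83.5 and 65.1 in their KO libraries. The increase was 2.46 ± 0.20 (SE, adjusted p = 6.31e-05), or 1.04 (adjusted p = 0.00211) when scaled to RPE markers. Against Ctrl at 47.1 and 55.6 CPM, KO libraries at 76.2 and 62.0 were both higher by 0.43 ± 0.23 (SE, adjusted p = 0.616), not called and -0.14 under that scaling. Against CreCtrl at 45.6 and 39.2 CPM, Gpr143 rose to 76.8 and 77.2, by 0.83 ± 0.15 (SE, adjusted p = 0.0161), which was not called without KO replicate 2 (adjusted p = 0.0601) or under scaling to RPE markers (0.38, adjusted p = 0.113).

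Rab38 was the least abundant member. WT libraries held 10.1, 7.40 and 9.66 CPM and their KO libraries 9.93, 11.3 and 8.82, which overlapped, with a log2 difference of 0.0028 ± 0.32 (SE, adjusted p = 0.995). Under scaling to RPE markers the difference was -1.44 (adjusted p = 0.00662), a call of lower. Ctrl libraries, at 18.0 and 29.7 CPM, were both above KO libraries at 13.0 and 14.1, by a difference of -0.81 ± 0.34 (SE, adjusted p = 0.445). CreCtrl libraries, at 10.9 and 6.60 CPM, were both below KO libraries at 17.3 and 17.5, by 0.95 ± 0.28 (SE, adjusted p = 0.0569), and this was called without CreCtrl replicate 1 (1.35, adjusted p = 0.00866).

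Whether the KO effect differed between sets was tested in a fit of all 6 groups. The effect was larger in the WT set than in the Ctrl set for 6 members at an adjusted p under 0.05, where 5.15% of all 17662 genes differed in either direction. These were Pmel, with a difference between the log2 effects of 2.84 ± 0.54 (SE, adjusted p = 0.0149), Oca2 with 2.55 ± 0.25 (SE, adjusted p = 0.00235), Gpr143 with 2.18 ± 0.27 (SE, adjusted p = 0.00544), Tyr with 2.13 ± 0.43 (SE, adjusted p = 0.0176), Dct with 2.11 ± 0.30 (SE, adjusted p = 0.00784) and Slc24a5 with 1.63 ± 0.30 (SE, adjusted p = 0.0141). Compared with the CreCtrl set it was larger for 4, against 1.49% of all genes: Oca2 with 1.90 ± 0.25 (SE, adjusted p = 0.0136), Slc24a5 with 1.76 ± 0.30 (SE, adjusted p = 0.0227), Gpr143 with 1.75 ± 0.27 (SE, adjusted p = 0.0187) and Dct with 1.71 ± 0.30 (SE, adjusted p = 0.0240). The difference of 2.31 ± 0.53 (SE, adjusted p = 0.0522) for Pmel was not called. That count of 4 depended on single libraries, since it was 0 without CreCtrl replicate 1 and without either KO replicate of the CreCtrl set, 1 without KO replicate 2 of the WT set and 2 without KO replicate 3 or WT replicate 2, and it was 2 when scaled to RPE markers (0.243% of all genes higher and 28.3% lower), Oca2 at 0.79 and Rab38 at -1.97. The differences from the Ctrl set also depended on single libraries. With 1 library left out, that of Pmel ranged from 1.56 to 3.51, and the calls of Pmel, Tyr and Slc24a5 were not always kept. Without Ctrl replicate 2 the median difference of the 10 was 1.42, beside 2.03 with all libraries. Between the Ctrl and CreCtrl sets 0 members differed by edgeR (0% of all genes), with 4 at an unadjusted p under 0.05, and 0 by DESeq2. Without Ctrl replicate 1 the count there was 1, Tyrp1 at -2.23 (adjusted p = 0.0414). The RPE marker sums of the WT libraries were the lowest of the 14, and scaled to those markers 5 of the 6 differences from the Ctrl set kept an adjusted p under 0.05, all but Slc24a5, where 1.25% of all genes differed in the same direction and 20.3% in the other.

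Over the 3 sets together, with 7 KO and 7 control mice and set as a covariate, 5 members rose, beside 11% of 14925 genes called higher and 16.8% called lower: Oca2 by 1.64 ± 0.34 (SE, adjusted p = 0.00220), Gpr143 by 1.43 ± 0.30 (SE, adjusted p = 0.00234), Slc24a5 by 1.24 ± 0.27 (SE, adjusted p = 0.00282), Dct by 1.05 ± 0.30 (SE, adjusted p = 0.0136) and Tyr by 0.86 ± 0.30 (SE, adjusted p = 0.0349), of which Tyr was at -0.07 when scaled to RPE markers. Under that scaling only Oca2 remained called higher, at 0.72 (adjusted p = 0.00826). The call of Tyr was lost without any 1 of the 3 WT libraries, of the 3 KO libraries of the WT set, of CreCtrl replicate 2 or of KO replicate 2 of the CreCtrl set, at adjusted p = 0.0535 to 0.0993. The other 5 members were not called, at 0.66 for Slc45a2, 0.34 for Tyrp1, 0.08 for Rab38, 0.03 for Mlana and -0.35 for Pmel. Without Ctrl replicate 2, Tyrp1 was called at 0.65 (adjusted p = 0.0120) and Pmel was at 0.04. These pooled values average effects that differed between sets for the genes named above.

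Because RPE marker transcripts differed between groups in the same direction as these genes, each fit was repeated with libraries scaled to the geometric mean of the 10 RPE markers. This asks how the genes differed relative to other RPE transcripts. The paper lists Rlbp1, Rdh5, Best1 and Slc16a8 among genes altered in KO vs. WT. There 9 of the 10 markers were called higher, and the lowest was at -1.82. The scaling takes the markers as unchanged by the KO itself, which was not tested, and weighs each of them equally. It moved the median of all genes from -0.08 to -1.51 in KO vs. WT, from 0.01 to -0.55 against Ctrl and from -0.02 to -0.48 against CreCtrl, and took the share of higher genes among those called in KO vs. WT from 44.4% (2171 higher and 2716 lower) to 1.05%, with 10578 lower. With library size alone that share was 28.3%. Relative to the RPE markers, 4 members were called higher (Oca2, Gpr143, Slc24a5 and Dct) and 2 lower (Mlana at -1.01 and Rab38 at -1.44) in KO vs. WT, beside 0.726% of all genes called higher and 68.6% lower, and all 10 lay above the shifted median of all genes. In the pooled fit Pmel at -1.27 (adjusted p = 0.00349), Mlana at -0.90 (adjusted p = 0.00644) and Rab38 at -0.88 (adjusted p = 0.0218) were called lower, 3 of 10 members beside 64.5% of all genes called lower. Scaling to library size alone, with medians of -0.32, -0.11 and -0.24, left 6 members called higher in KO vs. WT, with Tyrp1 lost (adjusted p = 0.0787). Of all genes, 9.18% were called higher there and 23.2% lower.

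**Figure D3:**
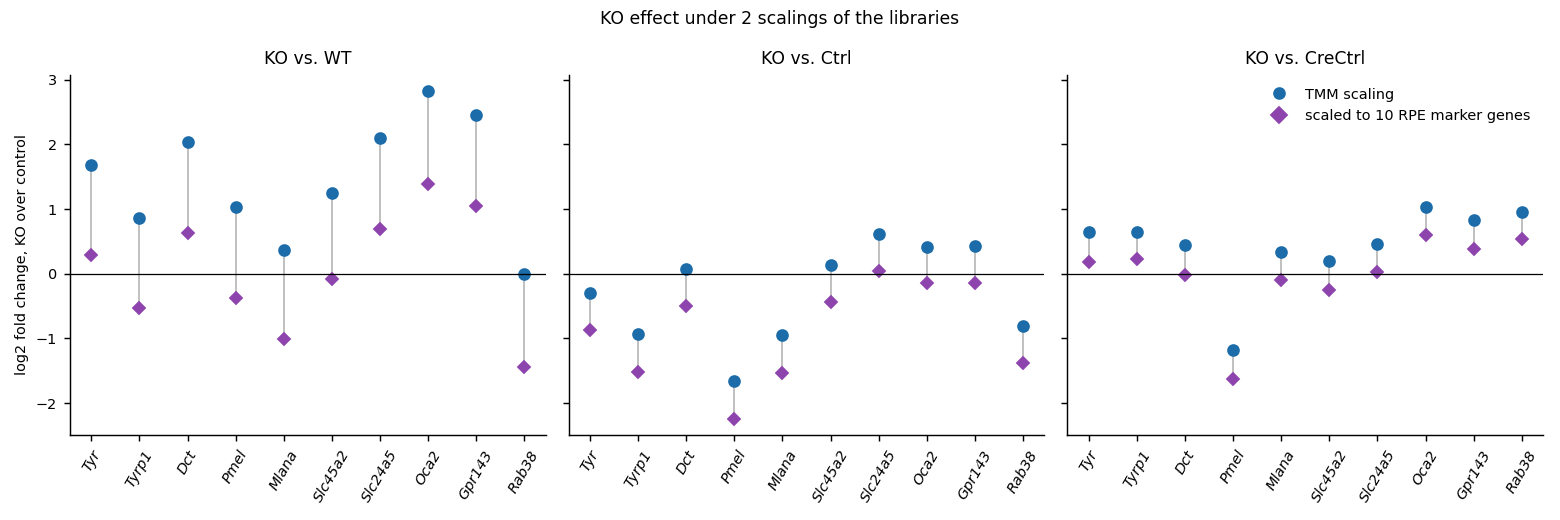
Log2 fold change of each gene in KO over control with TMM scaling (blue circles) and with libraries scaled to the 10 RPE markers (purple diamonds), 1 panel per set. Scaling to RPE markers lowered every point, by most in KO vs. WT, where Oca2 went from 2.83 to 1.39 and Mlana from 0.37 to -1.01.

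A ratio of 2 members' counts in the same library does not depend on scaling. Oca2 was taken as the denominator after its values were seen, so the ratios are descriptions with no test. Pmel had 3.53 to 4.97 counts per count of Oca2 in WT and 0.990 to 1.61 in their KO libraries. It had 1.33 to 3.69 in Ctrl against 0.571 to 0.694, and 2.13 to 3.30 in CreCtrl against 0.479 to 0.672. The KO libraries were thus below their controls in all 3 sets, including the set in which the CPM of Pmel was higher in KO. The same order held for Mlana, with 1.35 to 2.75 against 0.337 to 0.427 in the WT set, 0.466 to 0.829 against 0.164 to 0.374 in the Ctrl set and 0.430 to 0.448 against 0.214 to 0.333 in the CreCtrl set. Tyrp1 per Oca2 was also lower in KO in each set, most narrowly in the CreCtrl set at 1.83 to 2.07 against 1.41 to 1.63. Gpr143 per Oca2 overlapped in all 3 sets and stayed between 0.275 and 0.561 over the 14 libraries. Tyr, Dct and Slc24a5 per Oca2 were each below the controls in 2 of the 3 sets and overlapped in the other, the CreCtrl set for Tyr and the Ctrl set for Dct and Slc24a5. As Oca2 had the largest increase in KO vs. WT, lower ratios to it follow in part from its choice. Pmel, Mlana and Tyrp1 were lower relative to Oca2 in the KO libraries of each set, which was not tested. How many of all genes had such ratios to Oca2 was not counted.

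**Figure D4:**
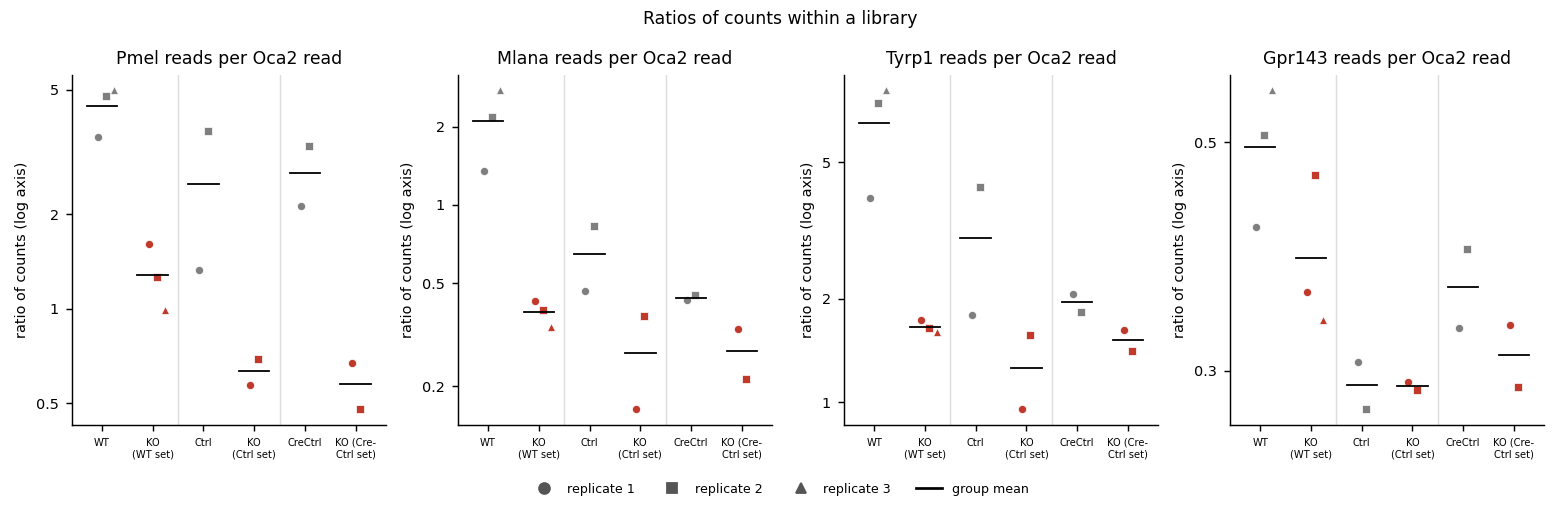
Counts of Pmel, Mlana, Tyrp1 and Gpr143 per count of Oca2 in each library (log axis, a different range in each panel), with controls in grey, KO in red and a line at each group mean. In each set the KO libraries lay below the controls for Pmel, Mlana and Tyrp1, whereas for Gpr143 they overlapped.

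Choroidal melanocytes share these genes, so 6 genes that mark melanocytes were read beside them: Sox10, Kit, Ednrb, Mlph, Cited1 and Mc1r. Ednrb, the endothelin receptor of melanocytes, was at 5.66, 12.6 and 19.0 CPM in WT, 12.9 and 78.9 in Ctrl and 12.4 and 6.67 in CreCtrl libraries. The KO libraries had 2.31, 0 and 1.67 CPM in the WT set, 5.28 and 2.39 in the Ctrl set and 2.60 and 2.57 in the CreCtrl set, and the library at 0 allows up to 3 counts or 0.183 CPM. Ednrb fell in KO vs. WT by 3.35 ± 1.07 (SE, adjusted p = 0.0390) and vs. CreCtrl by 1.92 ± 0.38 (SE, adjusted p = 0.0216), and was at -3.58 ± 0.93 (SE, adjusted p = 0.177) vs. Ctrl, not called. The call against WT was lost without any 1 WT library or without KO replicate 1 or 3 (adjusted p of up to 0.149). That against CreCtrl was lost with all 14 libraries fitted together. Over the 3 sets together Ednrb fell by 2.97 ± 0.61 (SE, adjusted p = 0.00227). Cited1 fell over the 3 sets together by 2.11 ± 0.68 (SE, adjusted p = 0.0238), and was not called without WT replicate 3, Ctrl replicate 2 or KO replicate 1 of the Ctrl set (adjusted p of up to 0.0631). Sox10 and Kit rose in KO vs. WT, by 1.21 ± 0.14 (SE, adjusted p = 2.93e-04) and 1.13 ± 0.23 (SE, adjusted p = 0.00524), and were at -0.22 and -0.31 when scaled to RPE markers, and Sox10 was at 173 to 758 CPM in all 14 libraries. Mlph, a linker between melanosomes and myosin, was not called in any set, at -1.06, -1.25 and 0.10. Mc1r was at 0 to 0.780 CPM. The whole list summed to 228 to 293 CPM in WT, 433 to 677 in Ctrl, 424 to 472 in CreCtrl and 496 to 813 in KO libraries. Sox10 was the largest part of these sums, so they do not follow Ednrb or Cited1.

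Ctrl replicate 2 stood apart from the other 13 libraries in several genes of this list, though not in its sum, and in several members. It held 78.9 CPM of Ednrb, 67.8 of Mlph, 64.1 of Kit and 9.66 of Cited1, each the highest of the 14, together with the highest Tyrp1 (852 CPM), Pmel (744) and Mlana (167). The RPE marker sums of the pair of Ctrl libraries were 48249 and 48304 CPM. Oca2 in this library, at 202 CPM, was within the range of the KO libraries, and Gpr143, at 55.6 CPM, was below it. Without it the log2 difference of KO vs. Ctrl was 0.09 for Tyrp1, -0.46 for Pmel, -0.22 for Mlana and -0.41 for Rab38. The part of melanocyte transcripts in the differences of the Ctrl set was not tested.

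**Figure D5:**
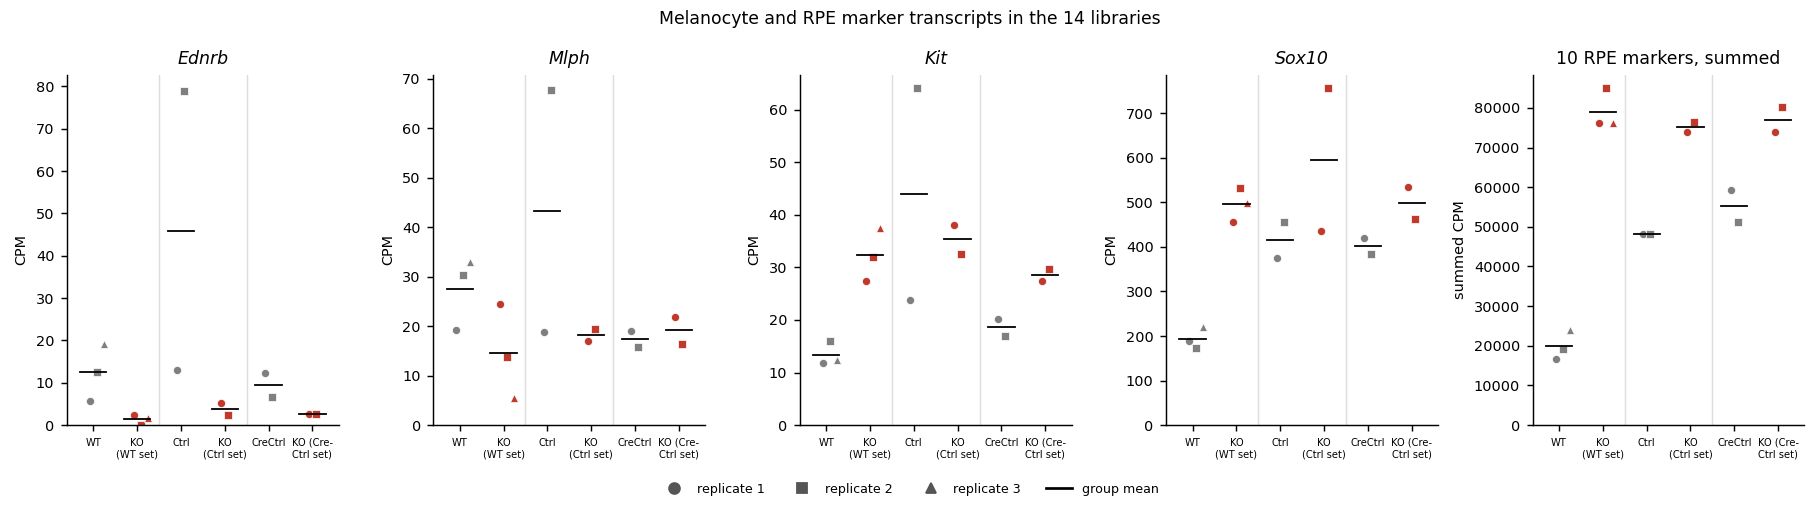
CPM of the melanocyte markers Ednrb, Mlph, Kit and Sox10, and the summed CPM of the 10 RPE markers, in the 14 libraries (linear axes from 0), with controls in grey, KO in red and a line at each group mean. Ctrl replicate 2 was the highest library for Ednrb (78.9 CPM), Mlph and Kit, and RPE marker sums were lowest in WT (16558 to 24078 CPM) and highest in KO (73980 to 85000).

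Beyond the 10 members, 43 genes of melanosome biogenesis, transport and regulation were read as lists. In KO vs. WT, 10 of the 43 rose and 3 fell, and their median log2 fold change was 0.24. With library size alone 7 rose and 4 fell, beside 9.18% of all genes called higher and 23.2% lower. Scaled to RPE markers 0 were called higher and 30 lower, beside 0.726% and 68.6% of all genes, and the median was -1.19, beside -1.51 over all genes. In KO vs. Ctrl 0 were called in either direction by edgeR, with a median of 0.17. Of 42 tested against CreCtrl, 2 rose and 2 fell, with a median of 0.21, beside 3.46% of all genes called higher and 12.2% lower. With all 14 libraries fitted together, 0 of 43 were called against CreCtrl, beside 1.12% of all genes higher and 2.86% lower. Over the 3 sets together 7 rose and 2 fell, beside 11% and 16.8% of all genes. Scaled to RPE markers, 0 were called higher and 3 lower against CreCtrl (18.2% of all genes lower) and 0 higher and 24 lower over the 3 sets (64.5% of all genes lower). In KO vs. WT 14.1% of all genes were called higher and 17.6% lower. The 13 subunits of the BLOC complexes, which sort cargo to the melanosome, ranged from -0.52 to 0.78 in KO vs. WT with a median of 0.43, and 1 of them rose, Bloc1s6 by 0.62 ± 0.16 (SE, adjusted p = 0.0190), a direction that turned when scaled to RPE markers (-0.82, adjusted p = 0.00828). The largest differences in that list, 0.78 ± 0.48 (SE, adjusted p = 0.257) for Hps6 and 0.70 ± 0.26 (SE, adjusted p = 0.0663) for Bloc1s4, were not called. Of the 10 genes of AP-3, Rab, HOPS and Lyst sorting, 2 rose and 1 fell, with a median of 0.20. The GTPase Rab32, a close relative of Rab38, fell by 3.24 ± 0.53 (SE, adjusted p = 0.00186) in KO vs. WT and by 1.48 ± 0.40 (SE, adjusted p = 0.0495) vs. CreCtrl, and it fell by 4.65 and 1.95 when scaled to RPE markers. The call against CreCtrl was lost without CreCtrl replicate 2 or KO replicate 2 of that set, and with all 14 libraries fitted together. The AP-3 subunit Ap3s1 rose by 0.98 ± 0.24 (SE, adjusted p = 0.0124) in KO vs. WT and was at -0.44 when scaled to RPE markers. Rab32 was measured at 21.9, 16.5 and 25.4 CPM in WT and 3.88, 2.80 and 0.802 in their KO libraries, and these did not overlap.

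Rab27a and Myrip, which tether melanosomes to the actin motor Myo7a in RPE cells, were the called genes of the 5 in melanosome transport. Rab27a was at 126, 161 and 212 CPM in WT and 522, 578 and 552 in KO libraries, and rose by 1.58 ± 0.20 (SE, adjusted p = 4.24e-04) in KO vs. WT and by 0.78 ± 0.20 (SE, adjusted p = 0.0426) vs. CreCtrl. Myrip rose by 1.56 ± 0.16 (SE, adjusted p = 1.67e-04) in KO vs. WT. Scaled to RPE markers, neither was called in KO vs. WT, at 0.18 for Rab27a and 0.11 for Myrip, nor was Rab27a against CreCtrl (0.34, adjusted p = 0.1095), and with TMM scaling Myo7a was at 0.14 ± 0.17 (SE, adjusted p = 0.587). In ion and metal transport Ostm1, partner of the chloride transporter Clcn7, rose by 1.24 ± 0.21 (SE, adjusted p = 0.00216) in KO vs. WT and 1.00 ± 0.25 (SE, adjusted p = 0.0400) vs. CreCtrl. The cation channel Tpcn2 of the melanosome membrane fell by 1.23 ± 0.35 (SE, adjusted p = 0.0243) and 0.98 ± 0.24 (SE, adjusted p = 0.0378) in the same comparisons. The fall of Tpcn2 in KO vs. WT was not called without any 1 WT library, at an adjusted p of up to 0.0763, and was 2.67 when scaled to RPE markers, while Ostm1 then stood at -0.18. Ostm1 was not called against CreCtrl under that scaling (0.56, adjusted p = 0.0713). Against CreCtrl, the calls of Rab27a, Ostm1 and Tpcn2 were each lost without CreCtrl replicate 2 and without KO replicate 2 of that set. That of Rab27a was also lost without KO replicate 1. With all 14 libraries fitted together, each of these calls was lost as well. In Pmel processing and stage genes 3 of 5 rose in KO vs. WT: Cd63, which sorts Pmel fragments, by 1.25 ± 0.12 (SE, adjusted p = 1.49e-04), the protease Bace2 by 0.81 ± 0.15 (SE, adjusted p = 0.00358) and the Pmel relative Gpnmb by 1.03 ± 0.24 (SE, adjusted p = 0.0104), and all 3 were below 0 when scaled to RPE markers, at -0.19, -0.61 and -0.37. Of 5 transcription factors, Otx2 rose by 1.31 ± 0.15 (SE, adjusted p = 2.67e-04), and was at -0.16 when scaled to RPE markers. Tfec had 32, 8 and 18 counts in WT and 0, 0 and 2 in their KO libraries, and was called lower (adjusted p = 0.0462), a call lost without any 1 WT library or without KO replicate 1 or 2. Mitf, the main regulator of pigment cell genes, was at 0.19, 0.31 and 0.01 in the WT, Ctrl and CreCtrl sets and was not called in any. Its CPM was 92.1, 75.8 and 77.0 in WT and 101, 103 and 104 in their KO libraries. Otx2 differed in its KO effect between the WT set and both others, by 1.17 ± 0.23 (SE, adjusted p = 0.0166) and 1.12 ± 0.23 (SE, adjusted p = 0.0358), but not when scaled to RPE markers (0.13 and -0.0028). The difference from the Ctrl set was lost without Ctrl replicate 2 or KO replicate 2 of that set (adjusted p of up to 0.0888), and that from the CreCtrl set without any 1 of 8 libraries, WT replicates 2 and 3, CreCtrl replicate 1 and the 5 KO libraries of these sets (adjusted p of up to 0.215).

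The profile of the members over the 14 libraries was described by the mean of their centred log2 CPM. It lay lowest in the WT libraries, at -1.71, -1.29 and -0.98, and highest in Ctrl replicate 2, at 1.00. Of the 9978 genes with a mean of at least 10 CPM, the 5 others whose profile differed least from it, by the root mean square difference in log2 CPM over the 14 libraries, were Rab27a (0.183), Msmo1 (0.188), Dtna (0.191), Sqle (0.193) and Abcc4 (0.203). Among the members themselves Dct was the nearest to the mean profile at 0.222 and Pmel the farthest at 0.626, with Oca2 at 0.617. Single members thus differed from the mean by more than these 5 genes did.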

How the data were processed

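Stranded poly(A) RNA libraries of RPE cells were sequenced as paired-end reads. The authors deposited 1 table of raw counts per Ensembl gene, which they made by aligning reads to GRCm38 with STAR 2.5.2. The submitters' processing notes also name bcl2fastq 2.19, Cufflinks 2.1.1 and HTSeq 0.11.2 with no role, and the strand setting and annotation release are not given in the sources used here. Of the 42687 genes, 42329 were matched to GENCODE M21, which gave names, positions and exon lengths. All 14 columns belong to a library, and no row lacked a gene name. KO libraries were put in sets by the style of their titles.

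Counts were tested with edgeR 4.0.16 in R 4.3.3 by the quasi-likelihood test with TMM factors and genes kept by filterByExpr, within each set, over the 3 sets with set as a covariate, and with all 6 groups for differences between sets. P-values were adjusted over all genes tested. Mice are the replicates, and with 2 mice in an arm precision is low. These fits, and the same fits with DESeq2, were run on simulated data. Of the differences between sets only WT minus Ctrl was checked there. The simulated data had a fixed dispersion and few changed genes, and the other alternatives below were not simulated. CPM use TMM factors over the 14 libraries, whereas fold changes use those of their own fit. The CPM at 3 counts uses the total alone. Alternatives were RLE factors, library size alone, scaling to 10 RPE markers, filters of 1 count in all or 10 counts in every library, DESeq2 1.42.0, a replicate block, 1 fit of all 14 libraries and leaving out each library.

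The 10 members, the gene lists and the markers were chosen with earlier results of these data known. Named genes were all members, the called genes of pigment lists of up to 5 genes, otherwise the 2 with the largest absolute log2 fold change in KO vs. WT, and the 5 genes most like the members' mean profile. Bloc1s6 and genes named for a library left out, Mitf, Myo7a and the melanocyte markers were named after their values were seen. Promoters came from RefSeq (GRCm38.p6), which matched 5 of the 10 members. Replicates of every group differed by more than sampling noise (chi-square per degree of freedom of 18.0 to 114). The replicate numbers were not shown to pair the mice: deviations of same-numbered WT and KO libraries correlated at -0.019, 0.070 and 0.18. Those of different number in that set correlated at -0.16 to 0.071. Same-numbered libraries were at 0.13 in the CreCtrl set and -0.0062 in the Ctrl set. So few correlations cannot settle whether mice were paired.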

Additional observations from a re-analysis of the deposited data

Results flagged for a closer look

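Among the 7 KO libraries, Tyr in KO replicate 2 of the CreCtrl set stood far from the others at 451 CPM, and Slc24a5 in KO replicate 2 of the Ctrl set at 484 CPM. With 10 genes looked at over the 7 KO libraries of 3 sets, how often chance gives such a library was not tested. The KO effect differed between the WT and Ctrl sets, by the test of the difference, for Tyr (2.13 on the log2 scale), Dct (2.11), Pmel (2.84), Slc24a5 (1.63), Oca2 (2.55) and Gpr143 (2.18). It differed between the WT and CreCtrl sets for Dct (1.71), Slc24a5 (1.76), Oca2 (1.90) and Gpr143 (1.75). In all of these the effect was more positive in the WT set, where control genotype and set cannot be told apart. These differences depended in part on single libraries, that of Pmel from the Ctrl set ranging from 1.56 to 3.51 with 1 library left out.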

How the results depend on the processing

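Of the log2 values of the members under all alternatives, 1042 kept their direction and side of the threshold, 48 lost and 42 gained a call in the same direction and 58 changed sign. The cause was not tested where no alternative's construction gives it. KO vs. WT had 6 to 9 called members under every alternative, beside 21.6% to 69.3% of all genes called. All were higher except when scaled to RPE markers (4 higher and 2 lower). The WT minus Ctrl difference was met by 5 to 9 members with every library kept (3.1% to 21.5% of all genes). It was met by fewer without Ctrl replicate 2 or KO replicate 2 of that set. Members called in KO vs. Ctrl numbered 3 with all genes of at least 1 count kept (Tyrp1, Pmel and Mlana, all lower, as were 6.81% of all genes), 1 with DESeq2 and 1 with all 14 libraries fitted together (Pmel in both, lower, as were 7.16% and 3.6% of all genes), and 0 to 1 when 1 library was left out. Those in KO vs. CreCtrl numbered 6 with at least 1 count (17.4% of all genes called) and 5 with DESeq2 (21.5%). They numbered 2 with all 14 libraries fitted together (3.98%), and the count moved in both directions with a library left out. The WT minus CreCtrl difference was met by 2 when scaled to RPE markers (28.6% of all genes). It was met by 1 to 4 with a library of the WT set left out (0.0685% to 1.55% of all genes). The Ctrl minus CreCtrl difference was met by 3 with at least 1 count (3.24%). A lone sample left in an arm was assumed to vary like those of the other arm.

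Signs changed, when scaled to RPE markers, in KO vs. WT Tyrp1 (-0.53), Pmel (-0.37), Mlana (-1.01), Slc45a2 (-0.084), Rab38 (-1.44), Bloc1s6 (-0.82), Ap3s1 (-0.44), Vps41 (-0.69), Ostm1 (-0.18), Bace2 (-0.61), Cd63 (-0.19), Gpnmb (-0.37), Otx2 (-0.16), Sox10 (-0.22) and Kit (-0.31), in KO vs. Ctrl Dct (-0.50), Slc45a2 (-0.44), Oca2 (-0.15) and Gpr143 (-0.14), in KO vs. CreCtrl Dct (-0.021), Mlana (-0.10) and Slc45a2 (-0.25), in the pooled fit Tyr (-0.069), Tyrp1 (-0.59), Mlana (-0.90), Slc45a2 (-0.23), Rab38 (-0.88), Bloc1s4 (-0.35), Ap3s1 (-0.27), Cd63 (-0.064), Otx2 (-0.19) and Sox10 (-0.16), in the WT minus Ctrl difference Rab38 (-0.052) and in the WT minus CreCtrl difference Tyrp1 (-0.75), Mlana (-0.91) and Otx2 (-0.0028). With library size alone they changed in KO vs. WT Rab38 (-0.24), in KO vs. Ctrl Dct (-0.026), in KO vs. CreCtrl Slc45a2 (-0.024), in the pooled fit Mlana (-0.20) and Rab38 (-0.16) and in the Ctrl minus CreCtrl difference Slc45a2 (0.054). With at least 10 counts in every library they changed in the pooled fit Mlana (-0.054) and Rab38 (-0.0057) and in the Ctrl minus CreCtrl difference Slc45a2 (0.017), with RLE factors in the pooled fit Mlana (-0.014) and with DESeq2 in the pooled fit Mlana (-0.013). Leaving out 1 library gave, for the values whose sign changed, in KO vs. WT Rab38 from -0.12 to 0.17, in KO vs. Ctrl Dct from -0.19 to 0.42, Slc45a2 from -0.087 to 0.41 and Tyrp1 from -1.52 to 0.085, in KO vs. CreCtrl Tyr from -0.057 to 1.15, in the pooled fit Mlana from -0.15 to 0.26, Rab38 from -0.086 to 0.23 and Pmel from -0.64 to 0.042, in the WT minus CreCtrl difference Mlana from -0.080 to 0.43 and Tyrp1 from -0.042 to 0.61, in the Ctrl minus CreCtrl difference Slc24a5 from -0.17 to 0.45, Pmel from -1.20 to 0.72 and Slc45a2 from -0.34 to 0.23.

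For the called genes of the other pigment lists and the melanocyte list, the same alternatives were chosen after seeing the data. Their signs changed only when scaled to RPE markers, as listed above. With the block, the calls of Tfec and Ednrb in KO vs. WT, Rab27a vs. CreCtrl and Cited1 in the pooled fit were lost. With all 14 libraries fitted together, those of Rab32, Rab27a, Tpcn2, Ostm1 and Ednrb vs. CreCtrl were lost.

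With the replicate number as a block, 7 members were called against WT (29.4% of all genes) and 0 against Ctrl (0.739%). There were 4 against CreCtrl (23.6%, with Rab38 gained, at 0.99) and 4 in the pooled fit (25.9%, with Tyr lost, at 0.85). The numbers were not shown to pair mice. In the WT set not every library correlated best with its own number. No such fit was made for the differences between sets. Rab38 and Slc45a2 had the fewest reads per kb of the members, and 2 libraries an arm in the Ctrl and CreCtrl sets limited every test there.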
